A study of Mus musculus with 2 samples.

Results

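Membrane carriers of sugars, monocarboxylates, nucleosides, folate and thiamine, organic ions, nucleotide sugars and lysolipids were described in bEnd3 cells. Members were all genes read by at least 1 probe set not shared with another gene and whose symbol belongs to the solute carrier families Slc2a, Slc5a, Slc16a, Slc19a, Slc22a, Slc28a, Slc29a and Slc35a to Slc35f or to the Slco family, together with Mfsd2a. There were 104 such genes, read by 197 probe sets, among 18193 genes that the array reads alone. RefSeq lists 112 mouse genes that meet the rule, and the other 8 were not analysed here.

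The cells are a mouse brain endothelial line of BALB/c origin, transformed with polyoma middle T antigen and grown in medium with 15% serum. One population had received a retroviral siRNA against Smad4, the shared Smad of the TGF-β and BMP pathways, and the other a control siRNA; both were selected with puromycin. RNA of 2 infections was pooled for each, and each pool was read on 1 Affymetrix array, so no difference below has a replicate check and no test between the groups was made. Deposited signals were quantile normalized, and log2 ratios above 0 mean a higher signal in the sample labelled Smad4-siRNA than in the control. For each gene the probe set of highest mean signal was used, and a gene counted as measured on an array if its signal reached the array median of 22.8, termed the floor. A gene below the floor on 1 array has a fold written as "at least", taken between its other signal and the floor; a gene below it on both has no fold. Probe sets of the same gene that were measured on both arrays scattered around each other with a pooled SD of 0.47 on the log2 scale (4546 genes, and 0.37 for 19 carriers). This error leaves out any spread between arrays or cultures. It also leaves out probe sets below the floor on either array, some of which disagreed more widely. Pairs of signals below are given with the array labelled Smad4-siRNA first and the control array second.

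Smad4 itself did not show the loss that the label implies. Its 3 probe sets gave log2 ratios of 0.25, 0.58 and 0.35, or -0.12, 0.21 and -0.07 without normalization. That array is therefore called the array labelled Smad4-siRNA, and "higher" and "lower" give the direction on it, not a response to Smad4 loss. Markers of cell type also moved between the arrays. All 12 endothelial markers were measured on the Control-siRNA array, where their signals summed to 18128. The array labelled Smad4-siRNA measured 6 of 12, which with the others summed to 787, and Pecam1, Tek, Tie1, Cldn5, Esam and Emcn lay below the floor. Most of the 787 was Eng (508 and 748), the 1 endothelial marker that stayed within 2-fold. Of 10 fibroblast markers, 8 were measured on the labelled array and 2 on the control array, with summed signals of 21184 and 981. Most of the 981 was S100a4 (893 and 837), and Lum and Thy1 lay below the floor on both arrays. Of 8 pericyte and smooth muscle markers, 4 and 2 were measured (summed signals of 3012 and 91.9), while Cnn1, Myh11 and Rgs5 lay below the floor on both arrays. Des went the other way, with 13.7 and 36.2. Astrocyte markers reached the floor for 2 and 1 of 7 genes (summed signals of 2840 and 1884), and most of these sums was Gja1 (2738 and 1816). Leukocyte markers did so for 2 of 6 on each array (76.1 on the labelled array and 862 on the control array). That difference was mostly Cd68 (35.2 and 820). Csf1r had 23.2 and 28.2, and Ptprc, Aif1, Itgam and Cd3e lay below the floor on both arrays. Neuron and oligodendrocyte markers reached the floor for 0 of 6, and epithelial and choroid plexus markers for 1 of 7 on each. The latter was Epcam on the labelled array (81.7 and 8.54, at least 3.58-fold higher) and Folr1 on the control array (14.4 and 26.1). The part of these differences in the carrier values was not tested, and fewer cells of a type cannot be told apart from less RNA per cell.

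Solute carriers move small polar molecules across membranes that lipids alone keep closed to them. In brain endothelium, where tight junctions block the path between cells, glucose, lactate, nucleosides, thyroid hormone and vitamins reach the brain largely through such carriers, with Slc2a1 (the glucose carrier GLUT1) and Mfsd2a as textbook markers of the blood-brain barrier. The Slc35 carriers work inside the cell, where they bring nucleotide sugars and the sulphate donor PAPS into the Golgi and endoplasmic reticulum for the building of glycans.

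Many carriers were not measured in these cells, and those that were measured differed between the arrays in a share close to that of all genes. Of the 104 carriers, 37 were measured on both arrays, 8 were measured on the labelled array alone, 7 on the control array alone, and 52 (50.0%) on neither, against 36.3% of all genes. Among the 52 carriers measured on at least 1 array, 18 (34.6%) were at least 2-fold apart, where 31.7% of all 11581 such genes were. The 11 that were higher made up 21.2% (all genes 16.0%) and the 7 that were lower 13.5% (all genes 15.8%). Both shares lie near the background, so the count of called carriers is no result about carriers as a class. With log2 ratios centred on their median the split was 13 higher and 4 lower, 76.5% of calls higher in place of 61.1%. Over all genes 50.3% of calls were higher before centring. Their share after centring was not computed, so the 76.5% is not read as a trait of carriers. The median log2 ratio of the 52 was 0.09 (0.09 with bounds), and that of all genes measured on at least 1 array was -0.14 (-0.11 with bounds). The sign of the carrier median depended on the settings, for example -0.02 as deposited, where the median of all genes measured on both arrays moved from -0.15 to -0.33.

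**Figure D1:**
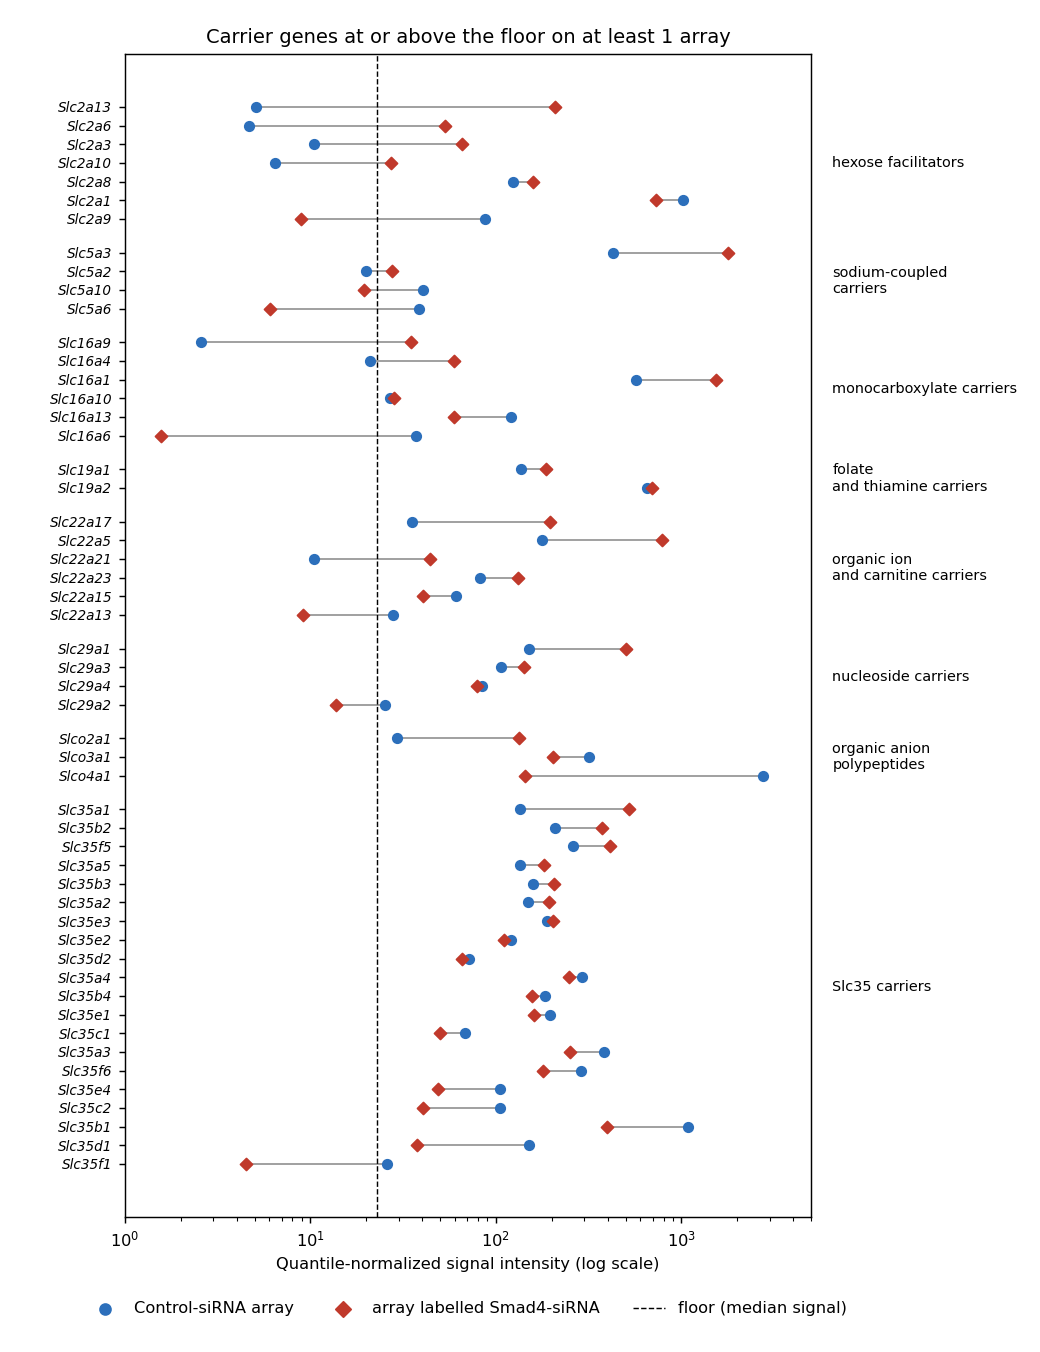
Quantile-normalized signal (log axis) of the 52 carriers at or above the floor on at least 1 array, grouped by family; circles are the Control-siRNA array, diamonds the array labelled Smad4-siRNA, and the dashed line is the floor of 22.8. Slco4a1 has the widest gap among carriers measured on both arrays (144 against 2760), while most Slc35 carriers have their points close together.

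Families differed in how many of their genes were measured, as the bars by family show. The Slc35 family had 20 of 24 genes at or above the floor on at least 1 array, the nucleoside carriers 4 of 5, the folate and thiamine carriers 2 of 3 and the hexose facilitators 7 of 11. The monocarboxylate carriers had 6 of 13, the sodium-coupled Slc5a carriers 4 of 11, the organic ion carriers of the Slc22a family 6 of 21 and the Slco family 3 of 15. Mfsd2a was measured on neither array.

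**Figure D2:**
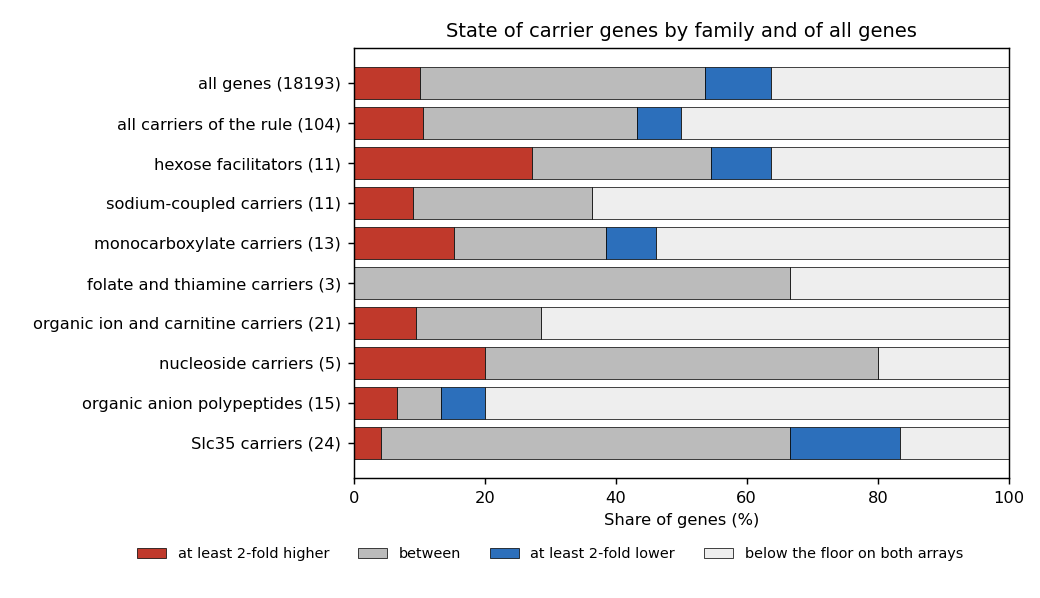
Share of genes (percent) in each family, in all 104 carriers and in all 18193 genes that were at least 2-fold higher, between, at least 2-fold lower, or below the floor on both arrays; the number of genes stands in parentheses. The Slco carriers have 80.0% of genes below the floor on both arrays and the Slc35 carriers 16.7%.

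Only 6 of the 18 called carriers kept their call under all 9 processing alternatives: Slc16a1, Slc5a3, Slc22a5 and Slc35a1 were higher, and Slco4a1 and Slc35b1 lower. Their sequences upstream of the start site are shown because these carriers bear the firmest differences, with that of Slc2a1 as the glucose carrier of the barrier. Each is the 250 bases before the RefSeq start (GRCm38.p6; for Slco4a1 the first of 2 starts), 5′ to 3′ on the gene's strand. Capitals mark ACGTG, a form of the core of the hypoxia response element, and GGGCGG, the GC box, on either strand (CACGT and CCGCCC on the other). The palindromic Smad binding element GTCTAGAC was searched as well and occurs in 0 of them. It stands in only 0.167% of all RefSeq windows, so its absence here says little, and no other Smad site was searched.
Slc16a1, chr3:104638414-104638663, plus strand: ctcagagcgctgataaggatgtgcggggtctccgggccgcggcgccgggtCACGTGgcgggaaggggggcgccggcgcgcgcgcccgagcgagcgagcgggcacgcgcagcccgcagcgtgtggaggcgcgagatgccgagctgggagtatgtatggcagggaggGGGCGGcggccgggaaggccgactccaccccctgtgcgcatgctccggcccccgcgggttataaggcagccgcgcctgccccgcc
Slc22a5, chr11:53891704-53891953, minus strand: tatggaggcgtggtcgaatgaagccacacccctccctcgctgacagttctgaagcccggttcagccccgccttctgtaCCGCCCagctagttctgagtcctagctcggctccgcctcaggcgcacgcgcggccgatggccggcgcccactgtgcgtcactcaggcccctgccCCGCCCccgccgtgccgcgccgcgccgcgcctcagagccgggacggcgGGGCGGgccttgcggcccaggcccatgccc
Slc35a1, chr4:34687439-34687688, minus strand: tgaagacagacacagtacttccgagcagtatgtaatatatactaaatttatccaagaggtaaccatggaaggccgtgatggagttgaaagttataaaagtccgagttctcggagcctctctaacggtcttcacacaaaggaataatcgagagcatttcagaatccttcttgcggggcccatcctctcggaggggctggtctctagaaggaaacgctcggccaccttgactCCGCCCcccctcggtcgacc
Slc5a3, chr16:92058072-92058321, plus strand: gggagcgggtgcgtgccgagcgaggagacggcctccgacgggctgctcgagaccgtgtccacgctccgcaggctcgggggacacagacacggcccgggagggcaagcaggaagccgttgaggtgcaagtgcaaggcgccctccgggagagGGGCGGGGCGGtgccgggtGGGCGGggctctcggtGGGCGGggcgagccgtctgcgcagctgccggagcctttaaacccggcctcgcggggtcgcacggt
Slco4a1, chr2:180455995-180456244, plus strand: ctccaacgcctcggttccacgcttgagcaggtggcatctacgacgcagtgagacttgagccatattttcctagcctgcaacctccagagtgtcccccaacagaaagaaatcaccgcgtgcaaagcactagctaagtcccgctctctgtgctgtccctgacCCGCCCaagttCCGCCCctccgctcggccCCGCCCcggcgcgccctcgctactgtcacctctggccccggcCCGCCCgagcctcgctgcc
Slc35b1, chr11:95384606-95384855, plus strand: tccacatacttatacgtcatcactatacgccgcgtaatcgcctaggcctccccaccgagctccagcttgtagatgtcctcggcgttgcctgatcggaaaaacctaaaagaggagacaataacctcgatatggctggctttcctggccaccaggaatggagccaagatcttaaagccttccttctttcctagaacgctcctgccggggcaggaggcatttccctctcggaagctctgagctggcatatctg
Slc2a1, chr4:119108495-119108744, plus strand: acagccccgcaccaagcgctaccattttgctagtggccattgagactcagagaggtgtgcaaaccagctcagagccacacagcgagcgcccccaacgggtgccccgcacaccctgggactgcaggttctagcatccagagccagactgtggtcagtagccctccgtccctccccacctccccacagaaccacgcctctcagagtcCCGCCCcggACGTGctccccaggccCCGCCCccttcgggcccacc
The upstream stretch of Slc16a1 holds CACGTG, which reads as ACGTG on both strands at overlapping positions, and that of Slc2a1 holds ACGTG at 1 position. None of the other 5 has ACGTG on either strand, and other forms of that core were not searched. GGGCGG is found 1 time in Slc16a1, 3 times in Slc22a5, 1 time in Slc35a1 and 4 times in Slc5a3. It is found 4 times in Slco4a1, 2 times in Slc2a1 and 0 times in Slc35b1. Over windows of this length, ACGTG occurs in 20 of 108 windows of the 88 carriers with a RefSeq window (18.5%) and in 16.6% of all 32851 windows. GGGCGG occurs in 44.4% of carrier windows and 32.7% of all windows, and GTCTAGAC in 0 carrier windows and 0.167% of all. The set of all windows includes genes without a probe set of their own here. The shares beside it are therefore not a matched comparison, and no excess in carriers is read from them. A match is a description of letters and not a binding site.

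The windows of measured and unmeasured carriers differed in base composition. Those of the 43 carriers measured on at least 1 array had a median G+C content of 62.0% with 13 CpG, and those of the 45 measured on neither had 51.2% with 4 CpG. GGGCGG stood in 60.3% of the former windows (58.2% for all genes measured on at least 1 array). It stood in 26% of the latter (29% for all genes measured on neither). The same direction was seen over all genes of the array, with 60.0% G+C and 16 CpG for windows of measured genes and 52.4% and 5 CpG for those of genes below the floor, so it is not particular to carriers.

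The hexose facilitators of the Slc2a family let sugars pass down their gradient. Slc2a1, the glucose carrier of brain endothelium, had signals of 729 and 1023, a log2 ratio of -0.49 (-0.88 as deposited). Its 3 probe sets had log2 ratios from -0.80 to -0.47, so all pointed the same way within 2-fold. Slc2a8, an intracellular family member, had 159 and 123 (log2 ratio 0.38). No facilitator measured on both arrays was thus past 2-fold.

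Other facilitators crossed the floor. Slc2a13, the proton-coupled myo-inositol carrier, had signals of 209 and 5.11, at least 9.19-fold higher. Slc2a3, the high-affinity glucose carrier best known from neurons, had 65.8 and 10.5 (at least 2.89-fold higher). This rests on probe sets whose suffix marks shared sequence; another Slc2a3 probe set read 1.65 and 6.57, below the floor on both arrays and with the opposite sign, and the call was lost without suffixed probe sets. Slc2a6, a lysosomal member, had 53.3 and 4.67 (at least 2.34-fold higher), and Slc2a10, whose loss in humans causes arterial tortuosity, had 27.3 and 6.48, a bound of only 1.20-fold. Slc2a9, a urate carrier, went the other way with 8.89 and 86.9, at least 3.81-fold lower, and its other probe set read 11.3 and 44.0. Slc2a2, Slc2a4, Slc2a5 and Slc2a12, among them the liver-type and the insulin-responsive glucose carriers and the fructose carrier, lay below the floor on both arrays.

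Genes that act on the sugar once inside were read from a list of 15, of which 10 had a probe set of their own. Of these, 4 were at least 2-fold higher and 1 lower, 50.0% called against 31.7% of all genes. Ldhb, a lactate dehydrogenase subunit, had 1115 and 35.5 (31.4-fold higher), and Mpc1 of the mitochondrial pyruvate carrier had 417 and 483 (log2 ratio -0.21). Among partners and regulators of carriers, 4 of 9 measured genes were higher (44.4%, all genes 16.0%) and 0 lower (all genes 15.8%). Both lists were chosen with earlier results of these data known, so their shares are descriptions only. Txnip, which promotes removal of glucose carriers from the surface, had 3077 and 404 (7.62-fold higher), and Gipc1, which binds the tail of GLUT1, had 178 and 356, a log2 ratio of -1.00 that fell just short of 2-fold and was -1.27, past it, as deposited.

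Sodium-coupled carriers of the Slc5a family use the sodium gradient to draw in sugars, inositol and vitamins. Slc5a3, the myo-inositol carrier that helps cells withstand osmotic stress, had 1781 and 428, 4.16-fold higher. A further probe set had 297 and 83.1 (log2 ratio 1.84), and the third lay below the floor on both arrays. Together with Slc2a13, both measured carriers of myo-inositol in these families were thus higher. Slc5a6, the carrier of biotin and pantothenate, had 6.06 and 38.4 (at least 1.69-fold lower), Slc5a10 had 19.4 and 40.4 (at least 1.77-fold lower), and Slc5a2, the renal glucose carrier SGLT2, had 27.4 and 20.0, near the floor on both arrays. Slc5a1, Slc5a5, Slc5a7, Slc5a8, Slc5a9, Slc5a11 and Slc5a12, which include the intestinal glucose, the iodide and the choline carriers, lay below the floor on both arrays.

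Monocarboxylate carriers of the Slc16a family exchange lactate, pyruvate and ketone bodies with protons, and some members carry other substrates. Slc16a1 (MCT1), the lactate carrier of brain endothelium, had 1530 and 566, 2.71-fold higher (log2 ratio 1.44, or 1.07 as deposited). Slc16a3, Slc16a7 and Slc16a8, the other classical lactate carriers, lay below the floor on both arrays. Slc16a1 was thus the lactate carrier of these families that the arrays measured. Its surface partner Bsg (basigin) had 3935 and 2047 (log2 ratio 0.94), and the related partner Emb (embigin) had 1153 and 9.61, at least 50.6-fold higher; both were named after their values were seen.

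The less characterised Slc16a members went both ways. Slc16a4 had 59.7 and 21.0 (at least 2.62-fold higher), with 61.1 and 15.3 in its other probe set. Slc16a9, which carries carnitine, had 34.8 and 2.58, a bound of 1.53-fold, and its other probe sets read 26.0 against 1.64 and 24.9 against 0.738. Slc16a13 had 59.8 and 121 (2.03-fold lower), a call kept under only 5 of the 9 alternatives and lost, for example, when the log2 ratios were centred. Slc16a6 had 1.56 and 37.1 (at least 1.63-fold lower), and Slc16a10, which carries aromatic amino acids and thyroid hormone, had 28.3 and 26.7. Slc16a5, Slc16a11, Slc16a12 and Slc16a14 lay below the floor on both arrays.

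Folate and thiamine enter through the Slc19a carriers. The reduced folate carrier Slc19a1 had 185 and 136 (log2 ratio 0.45) and the thiamine carrier Slc19a2 had 692 and 651, with a log2 ratio of 0.09 that turned to -0.30 as deposited. Neither was past 2-fold, and the second thiamine carrier, Slc19a3, was below the floor on both arrays.

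Nucleoside carriers supply bases for salvage and end adenosine signalling. Slc29a1 (ENT1), the equilibrative carrier that takes up adenosine at the endothelial surface, had 501 and 151, 3.32-fold higher, by its only probe set. That probe set has the suffix _a, so without suffixed probe sets no Slc29a1 value was left to call. Slc29a3, which works in lysosomes, had 141 and 107 (log2 ratio 0.40, with -0.15 in the other probe set). Slc29a4, a carrier of monoamines, had 79.4 and 84.0, with a log2 ratio of -0.08 that turned to 0.30 after centring. Those signals come from a probe set whose suffix marks shared sequence. The other Slc29a4 probe set read 5.19 and 5.41, below the floor on both arrays. Slc29a2 (ENT2) had 13.7 and 25.4 (at least 1.11-fold lower), and the concentrative carrier Slc28a3 lay below the floor on both arrays. ENT1 was therefore the nucleoside carrier past 2-fold among those measured. Of 15 salvage enzymes and ectoenzymes, 3 were higher, 3 lower and 9 between; the 20.0% in each direction lies near the 16.0% and 15.8% of all genes. Thymidine kinase Tk1 had 203 and 65.3 (3.11-fold higher) and uridine phosphorylase Upp1 had 24.8 and 785 (31.7-fold lower).

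Carriers of the Slc22a family handle organic cations, organic anions and carnitine. Slc22a5 (OCTN2), the high-affinity carnitine carrier, had 786 and 178, 4.41-fold higher, and its other probe set had 154 and 36.0 (log2 ratio 2.10). Slc22a21 and then Slc22a4 follow it in the order of protein-coding genes and belong to the same subfamily. Slc22a21, a further carnitine carrier beside Slc22a5, had 43.9 and 10.5, a bound of 1.93-fold in the same direction, and Slc22a4, the ergothioneine carrier beyond it, lay below the floor on both arrays (9.52 and 20.1).

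Slc22a17, the receptor for the iron-binding lipocalin 2, had 195 and 35.4, 5.50-fold higher by its only probe set. That probe set has the suffix _a, so without suffixed probe sets no Slc22a17 value was left to call. Slc22a23 had 131 and 82.2 (log2 ratio 0.67), Slc22a15 had 40.7 and 61.0 (log2 ratio -0.58), and Slc22a13 had 9.10 and 27.8 (at least 1.22-fold lower). The 15 remaining members, which include the kidney and liver carriers, lay below the floor on both arrays: Slc22a2, Slc22a4, Slc22a6, Slc22a7, Slc22a8, Slc22a12, Slc22a14, Slc22a16, Slc22a18, Slc22a19, Slc22a22, Slc22a26, Slc22a27, Slc22a29 and Slc22a30. The organic anion carrier Slc22a8 among them is known from the brain capillary and had signals of 6.86 and 8.02.

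Organic anion transporting polypeptides of the Slco family take up bile acids, hormones and prostaglandins. Slco4a1, which carries thyroid hormone, had 144 and 2760. It was 19.1-fold lower, the largest difference among carriers measured on both arrays, and its second probe set had 46.3 and 1176 (log2 ratio -4.67 beside -4.26). Slco2a1, the prostaglandin uptake carrier of endothelium, went the other way with 133 and 29.4, 4.52-fold higher. It was measured on both arrays by only 1 of its 4 probe sets, and with the median over probe sets its log2 ratio was 0.27. Slco3a1 had 202 and 317 (log2 ratio -0.65), and its probe sets ranged from -2.19 to -0.65. The other 12 members were below the floor on both arrays: Slco1a1, Slco1a4, Slco1a5, Slco1a6, Slco1b2, Slco1c1, Slco2b1, Slco4c1, Slco5a1, Slco6b1, Slco6c1 and Slco6d1.

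Carriers known from the blood-brain barrier split into measured and unmeasured genes in the same way on both arrays. Of 10 listed carriers with a probe set, Slc2a1, Slc5a3, Slc16a1, Slc19a1 and Slc29a1 reached the floor on both arrays. The other 5 were below it on both, and so also on the array whose endothelial markers were all measured. Slco1c1, the thyroxine carrier of brain capillaries, had 2.36 and 2.33, Slco1a4 14.1 and 3.66, Slco2b1 5.31 and 20.9, and Mfsd2a, the carrier of lysolipids with docosahexaenoic acid, 7.65 and 1.38. Of the 5 that were measured, 3 were at least 2-fold higher (Slc5a3, Slc29a1 and Slc16a1, 60.0%, all genes 16.0%) and 0 lower (all genes 15.8%). The list is short and was chosen with earlier results of these data known, so its share is a description only.

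The Slc35 family held the largest number of measured carriers. Of 20 measured members, 1 was at least 2-fold higher (5.00%, all genes 16.0%), 4 were lower (20.0%, all genes 15.8%) and 15 lay between, with a median log2 ratio of -0.23 (-0.21 with bounds). The exception above was Slc35a1, which brings CMP-sialic acid into the Golgi for sialylation. It had 519 and 134 (3.86-fold higher), and its other probe set had 349 and 118 (log2 ratio 1.57).

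Carriers for galactose, N-acetylglucosamine and fucose donors were within 2-fold by their brightest probe sets. Slc35a2, for UDP-galactose, had 192 and 149, with log2 ratios from -0.16 to 0.36 in the probe sets measured on both arrays. Slc35a3, for UDP-N-acetylglucosamine, had 252 and 384 (log2 ratio -0.61), with -1.11 to -0.33 over such probe sets, so that 1 of them was past 2-fold. A further Slc35a3 probe set read 18.8 and 105, below the floor on the labelled array. Slc35b4, for UDP-xylose and UDP-N-acetylglucosamine, had 157 and 183, and Slc35d2, a carrier of UDP-N-acetylglucosamine, 65.4 and 71.5, with a log2 ratio of -0.13 that turned to 0.31 after centring. The GDP-fucose carrier Slc35c1 had 50.2 and 67.9, a log2 ratio of -0.44 that was 0.03 after centring. The related Slc35a4 had 247 and 290 and Slc35a5 had 182 and 134.

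The lower members served other steps. Slc35d1, which brings UDP-glucuronic acid and UDP-N-acetylgalactosamine into the endoplasmic reticulum and is needed for chondroitin sulphate, had 37.6 and 150 (3.98-fold lower; -0.89 on the log2 scale in its other probe set). Slc35b1, described as the ATP and ADP exchanger of the endoplasmic reticulum, had 397 and 1086 by its only probe set, 2.74-fold lower. Slc35c2, linked to fucosylation of Notch, had 40.4 and 105 (2.61-fold lower), and Slc35e4 had 48.5 and 105 (2.16-fold lower). Centring ended the calls of Slc35c2 and Slc35e4, which were kept under 7 and 5 of the 9 alternatives.

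The PAPS carriers, which supply sulphate donors, showed that probe sets of a gene can disagree. Slc35b2 had 371 and 208 by its brighter probe set (log2 ratio 0.84), but another read 6.00 and 266 (log2 ratio -5.47). No direction can be given for it. Slc35b3 had 205 and 158 (log2 ratio 0.37).

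Members without a settled substrate were mostly close between the arrays. Slc35e1 had 160 and 196, Slc35e2 110 and 120, Slc35e3 203 and 188, Slc35f5 413 and 260, and Slc35f6 180 and 287. The signs of Slc35e2 and Slc35e3 depended on the scaling. Slc35f1, known from brain, had 4.52 and 26.0 (at least 1.14-fold lower), and its other probe set read 0.277 and 54.9. Slc35d3, Slc35f2, Slc35f3 and Slc35f4 were below the floor on both arrays.

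Enzymes that make the substrates of the Slc35 carriers were past 2-fold mainly on the higher side. Of 22 nucleotide sugar synthesis genes with a probe set, 8 were past 2-fold on the higher side, 1 on the lower side and 13 on neither, with a median log2 ratio of 0.52. That is 36.4% higher and 4.55% lower, beside 16.0% and 15.8% of all genes. Because the list was chosen with earlier results of these data known, these shares are descriptions only. Gmds, the first enzyme of GDP-fucose synthesis, had 427 and 62.7 (6.80-fold higher). Gfpt2, which opens the hexosamine pathway, had 67.2 and 192 (2.85-fold lower). Gfpt1, which acts at the same step, went the other way with 733 and 253 (2.90-fold higher), so no direction is given for that step. It was named after its values were seen. The difference between enzymes and carriers was not tested, since each array was 1 sample.

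**Figure D3:**
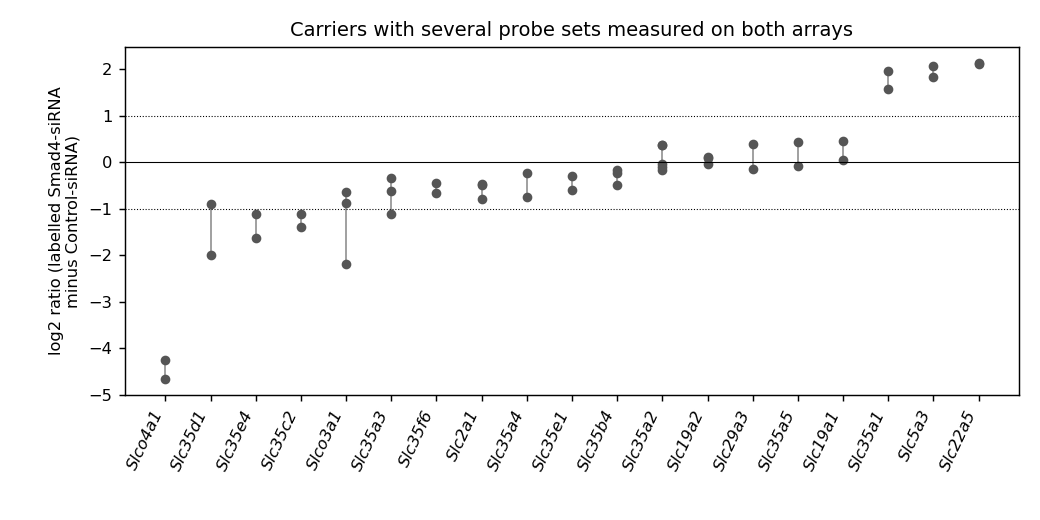
Log2 ratios of single probe sets (points) for the 19 carriers with more than 1 probe set measured on both arrays; lines join the probe sets of a gene and dotted lines mark 2-fold. Slco4a1, Slc35c2, Slc35e4, Slc35a1, Slc5a3 and Slc22a5 have all points past 2-fold, whereas Slc35a2, Slc19a2, Slc29a3 and Slc35a5 have points on either side of 0.

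Several carriers lie side by side on the chromosomes, and most such neighbours were not measured. In the order of protein-coding genes in RefSeq there were 13 neighbouring pairs of carriers made up of 22 genes, of which 18 were below the floor on both arrays, against 34 of the 82 carriers in no pair. In 9 pairs, on chromosomes 1, 6 and 19, both genes were below the floor on both arrays; these were Slco1, Slco4c1 with Slco6c1, and Slc22a genes. The measured neighbours were Slc22a5 with Slc22a21 on chromosome 11, described above, while Slc16a13 on that chromosome stood beside the unmeasured Slc16a11 and Slc22a13 on chromosome 9 beside the unmeasured Slc22a14. Neighbouring paralogs have similar sequences, and cross-hybridisation between them was not tested.

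**Figure D4:**
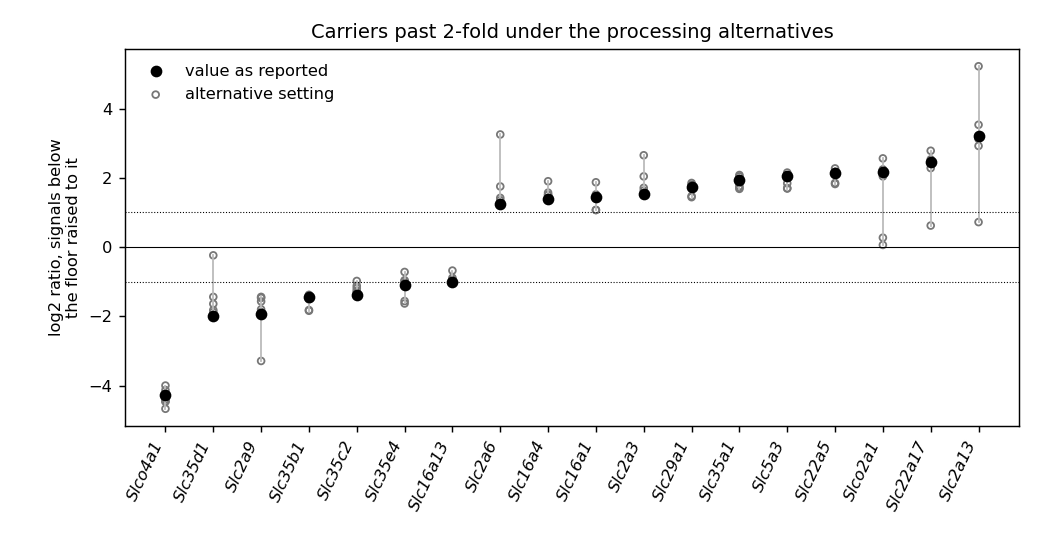
Log2 ratio of the 18 carriers past 2-fold as reported (filled) and under each processing alternative that gave a value (open), with signals below the floor raised to it; dotted lines mark 2-fold. No carrier changes sign, but Slco2a1, Slc22a17, Slc2a13 and Slc35d1 are among those that come within 2-fold under at least 1 alternative.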

How the data were processed

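The deposited values are MAS5 signal intensity per probe set on a linear scale, per the submitters' processing notes, which name neither a version nor a scaling target; detection calls were not used here. Of 45101 probe sets, 64 controls were left out. The platform annotation gave 932 probe sets several genes and 9160 no gene, and these were not used; symbols were updated by Entrez identifier through RefSeq (GRCm38.p6), where all 104 carriers matched. Because the 2% trimmed means of the arrays (115 and 138) differed by -17.2%, more than the 5% allowed, log2 signals were quantile normalized. The floor, fold bounds and use of the probe set of highest mean signal are as in the text, and the computation of calls was checked on simulated signals, which gives the calls no statistical support. All carriers are named. From related lists, the genes of highest and lowest log2 ratio measured on both arrays are named. Bsg, Emb, Gfpt1, Dio1 and Dio2 were named in addition after their values were seen. Members and lists were chosen with earlier results of these data known, so their shares beside those of all genes are descriptions only. With 1 array per group, the number of arrays limits precision and no test was made. Alternatives were other scalings (as deposited, median centring, lowess with fraction 0.3), floors at the 25th and 75th percentiles, a pseudocount, the median over probe sets, no suffixed probe sets, and platform symbols. Computation used Python 3.11.15 with pandas 2.3.3 and statsmodels 0.14.6.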

Additional observations from a re-analysis of the deposited data

How the results depend on the processing

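Of the 18 carriers past 2-fold, 6 kept their call under all 9 alternatives, and 0 of the 18 were called in the opposite direction under any. The count of 11 higher and 7 lower carriers became 18 and 17 once the floor was set at the 25th percentile, where 85 carriers were measured on at least 1 array, and 5 and 2 once the floor was raised to the 75th percentile (29 measured). Centring on the median left 4 lower carriers, against 13 higher. In the other alternatives the counts ran from 8 to 12 higher and from 5 to 8 lower. The shares of all genes were not computed under the alternatives. These counts therefore show how the calls depend on the settings and are no result about carriers as a class. The median log2 ratio of the carriers ran from -0.12 without suffixed probe sets to 0.38 under the higher floor. It took both signs, so no direction is given for the carriers as a group. The signs of 6 carriers measured on both arrays (Slc35c1, Slc35d2, Slc35e2, Slc35e3, Slc19a2 and Slc29a4) depended on the scaling. Of 433 values of single carriers under an alternative, 41 moved by more than the pooled SD between probe sets. The low signals of carriers near the floor limit what can be said of them, and a gene below it is not shown to be absent. No paired analysis was possible because each group had 1 array.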

Other observations

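Genes that handle the carried substrates further on were described for carnitine, folate and thyroid hormone. Of 8 measured carnitine genes, 2 were at least 2-fold higher and 0 lower, with a median log2 ratio of 0.56; 2 of 8 is a smaller share than the 31.7% called among all genes. The peroxisomal carnitine acyltransferase Crot had signals of 394 and 189 (labelled array first, control second; 2.08-fold higher, 0.77 on the log2 scale as deposited), and Crat, which acts on short chains, had 53.5 and 74.3 (log2 ratio -0.47). The carnitine carrier Slc22a5 was 4.41-fold higher.

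Of 10 folate and thiamine genes, 1 was higher, 3 were lower and 6 lay between (of all genes, 16.0% were higher and 15.8% lower). The mitochondrial folate enzyme Mthfd2 had 186 and 869 (4.68-fold lower), and Ggh, which removes glutamates from stored folate, had 558 and 401 (log2 ratio 0.48), while the folate carrier Slc19a1 stayed within 2-fold. Of 9 thyroid hormone genes with a probe set, the receptor genes Thra (359 and 78.8, 4.56-fold higher) and Rxra (273 and 75.4, 3.62-fold higher) were the 2 measured on both arrays. The hormone-activating deiodinases Dio1 and Dio2, named after their values were seen, were below the floor on both, and the hormone carrier Slco4a1 was 19.1-fold lower.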
